A study of Mus musculus with 107 samples.

Results

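The genes described here are 10 genes that fat cells are known for: Adipoq, Lep, Plin1, Fabp4, Cidec, Lpl, Retn, Cfd, Pparg and Lipe. They were chosen by gene symbol, from their known place in fat cells and with earlier results of these data known. They were sought among the 12394 genes named on array A and the 9611 named on array B (both Affymetrix). Array A holds 12 probe sets named for 8 of the genes, and array B holds 1 further probe set, for Lipe. No probe set was named for Plin1 or Cfd in the annotation used here, so these genes have no value below. The arrays were hybridized with RNA from 8 mm biopsies of mouse ear skin, collected at 24 h. Some of the ears had met sulfur mustard, which alkylates DNA and proteins and raises blisters, and others had not.

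Mustard, 0.08 mg (0.5 µmol) in 5 µL of methylene chloride, was put on the right ear. The left ear got the solvent only and is called the vehicle ear. There were 21 vehicle ears, 5 ears given mustard alone, 6 given dimercaprol before mustard, 6 given indomethacin before mustard and 5 given octylhomovanillamide before mustard. The drugs were given in ethanol 15 min before mustard. Dimercaprol, a chelator with a pair of thiol groups, was given at 6.25 mg in 10 µL. Indomethacin, an inhibitor of cyclooxygenases, was given at 1.34 mg in 20 µL. Octylhomovanillamide, a relative of capsaicin, was given at 0.6 mg by the treatment label and at 0.585 mg by the protocol, in 30 µL. The 5 ears of mustard alone are labelled without an ethanol pretreatment, so a drug and its ethanol cannot be told apart in comparisons with them. A separately numbered set of animals, measured on array A alone, received no mustard. From it came 5 ears of 3 naive animals, 3 ears given ethanol, and 4, 4 and 5 ears given dimercaprol, indomethacin and octylhomovanillamide in turn. The 3 ethanol ears are the left ears of animals 507, 515 and 520, whose right ears are among the drug ears. Strain, age and sex are not given in the sources used here.

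Fat cells of skin lie below the dermis and hold their lipid in 1 large droplet. PPARγ, made from Pparg, drives the fat cell programme together with C/EBP factors, and it switches on genes of lipid uptake (Lpl), lipid binding (Fabp4) and the droplet (Plin1, Cidec), and the hormone gene Adipoq. Lipe serves lipid release, and Lep, Retn and Cfd encode further proteins that fat cells secrete. Several of these genes are also used by other cells of an ear: Lpl by muscle and macrophages, Fabp4 by capillary endothelium and macrophages, and Pparg by sebaceous glands.

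Promoters of Pparg, Adipoq and Retn are shown because Pparg was called lower in mustard ears and the adipokines Adipoq and Retn were not. RefSeq's promoter table (GRCm38.p6) holds 12 windows for 8 of the 10 genes, each reaching from 250 bases before a start site to 50 bases after it. Fabp4 and Lpl have no entry there. The windows were searched on both strands for CCAAT, for TATAAA, for TTGCNNAA, a sequence that C/EBP factors bind, and for AGGTCA, the half-site of nuclear receptors. The paired form AGGTCANAGGTCA, to which PPARγ binds with its partner RXR, was searched too and contains AGGTCA. Matches are in capitals. The Pparg window shown is the one of 3 that lies at the start of PPARγ2, the form made in fat cells.
Pparg, chr6:115421816-115422115, plus strand: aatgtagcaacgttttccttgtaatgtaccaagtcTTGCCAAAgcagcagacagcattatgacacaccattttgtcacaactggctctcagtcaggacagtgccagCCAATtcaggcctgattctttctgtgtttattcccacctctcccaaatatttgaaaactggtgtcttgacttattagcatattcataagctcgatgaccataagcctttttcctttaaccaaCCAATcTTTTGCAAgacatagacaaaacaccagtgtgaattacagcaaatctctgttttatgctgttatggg
Adipoq, chr16:23146286-23146585, plus strand: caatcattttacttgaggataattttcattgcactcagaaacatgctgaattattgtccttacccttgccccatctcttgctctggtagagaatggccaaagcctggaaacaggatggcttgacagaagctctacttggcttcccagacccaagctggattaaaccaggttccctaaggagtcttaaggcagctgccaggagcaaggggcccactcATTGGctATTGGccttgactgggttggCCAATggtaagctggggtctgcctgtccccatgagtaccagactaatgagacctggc
Retn, chr8:3655520-3655819, plus strand: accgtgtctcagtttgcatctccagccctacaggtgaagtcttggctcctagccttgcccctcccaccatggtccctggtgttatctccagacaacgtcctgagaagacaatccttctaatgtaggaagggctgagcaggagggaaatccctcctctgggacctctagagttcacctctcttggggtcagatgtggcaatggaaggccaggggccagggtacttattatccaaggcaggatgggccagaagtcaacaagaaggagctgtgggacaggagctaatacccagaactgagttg
The Pparg window held 2 matches to CCAAT and 2 to TTGCNNAA, the nearest of the latter starting 16 bases before the start site. The Adipoq window held 3 matches to CCAAT, all within 34 bases before the start, and the Retn window held none of the motifs. Over all 12 windows, 4 held TTGCNNAA, 3 held CCAAT, 2 held AGGTCA, 1 held TATAAA and 0 held AGGTCANAGGTCA. Windows of 1 gene are not independent. By gene the counts were 4 for TTGCNNAA, 2 for CCAAT, 1 for AGGTCA and 1 for TATAAA. The windows with AGGTCA or TATAAA were all of Pparg, other than the one shown. Among 32851 promoters of the same length the shares were 10.8% for TTGCNNAA, 37.4% for CCAAT, 16.3% for AGGTCA, 13.6% for TATAAA and 0.0396% for AGGTCANAGGTCA. A match is a run of letters and not a site shown to be bound.

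Levels are given as scaled signal, the deposited signal after each array was brought to a trimmed mean of 500. Over all ears of array A, 6 genes had a probe set whose scaled signal averaged 100 or more and were tested: Lpl, Fabp4, Pparg, Adipoq, Retn and Lipe. Cidec, which joins lipid droplets, lay just below that minimum with a mean of 88.7. Lep, the hormone that reports fat stores, had a mean of 23.6, and Lipe on array B one of 70.1. Of the genes taken as defining for fat cells, Adipoq was read in every ear, between 163 and 1750 in vehicle ears, Cidec and Lep were below the minimum, and Plin1 was not measured by a named probe set. Before scaling, the trimmed mean of the 64 array A ears ran from 66.9 to 268. Each array is 1 ear, ears of 1 animal share a number, and their number limits the precision.

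In mustard ears 3 of the 6 tested genes fell against vehicle ears: Lpl, Fabp4 and Pparg. Adipoq did not pass the test, and Retn and Lipe lay close to their vehicle levels. Of all 9599 genes tested on array A, 43.4% were called in this comparison, 23.8% lower and 19.6% higher, so 3 of 6 is read against a wide response of the skin. The median difference over the 6 genes was -0.86 on the log2 scale and that over all tested genes -0.01. Biopsies hold many cell types. Fewer fat cells, less RNA in each and a change in other cells that use these genes cannot be told apart here.

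A single mustard ear stood apart. The library labelled as the mustard ear of animal 36 read 6089 for Krt6b, a keratin of wounded epidermis, against 21176 to 26875 in the other mustard ears and at most 1525 in vehicle ears. It also held the highest mustard value of Lpl, Fabp4, Pparg and Adipoq. Fits without it therefore had to deepen their falls against vehicle ears and raise their drug differences, and they are no separate support. Mustard ears 5 and 37 differed in another way, with dim arrays, whose trimmed means were 86.3 and 66.9. The Gapdh ratio, the log2 of 3' over 5' probe set signal and a measure of RNA integrity, was 0.63 and 0.78 in them. In the other mustard ears it was between -0.05 and 0.08.

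Lpl encodes lipoprotein lipase, which frees fatty acids from blood lipoproteins for uptake. Its scaled signal was 2086, 1789, 3027, 6089 and 2327 in the mustard ears of animals 1, 3, 5, 36 and 37. Vehicle ears read from 5321 to 10054 with a median of 6118. Ear 36 lay inside the vehicle range and the other mustard ears below all 21 vehicle ears. Lpl fell by 1.20 ± 0.17 on the log2 scale (SE; limma, adjusted p = 1.98e-07), a 2.29-fold change. Without ear 36, the highest, it fell by 1.48 ± 0.15 (limma, adjusted p = 1.33e-10). Without ear 3, the lowest, it was at -1.041 ± 0.175 (limma, adjusted p = 1.02e-05). Without ears 5 and 37 it fell by 1.16 ± 0.21, and by 1.15 ± 0.20 when the Gapdh ratio was a covariate (limma, adjusted p = 7.21e-05 and 5.28e-05). A dimmer probe set of Lpl fell by 1.01 ± 0.19 (limma, adjusted p = 2.45e-05).

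Fabp4, the fatty acid carrier of the fat cell cytoplasm, read 811, 992, 1171, 3472 and 1221 in the mustard ears of animals 1, 3, 5, 36 and 37. In vehicle ears it ran from 1011 to 5403 with a median of 3010. The groups overlapped, through ear 36 and through the vehicle ear of animal 19, which held the lowest vehicle value. Fabp4 fell by 1.10 ± 0.28 (SE; limma, adjusted p = 0.00158), a 2.14-fold change. Without ear 36, the highest, it fell by 1.44 ± 0.29 (limma, adjusted p = 5.43e-05). Without ear 1, the lowest, it was at -0.923 ± 0.307 (limma, adjusted p = 0.0144). Its second tested probe set fell by 1.05 ± 0.24 (limma, adjusted p = 0.000348). Without ears 5 and 37 the brighter one fell by 1.00 ± 0.36 (limma, adjusted p = 0.0353). With the Gapdh ratio as a covariate, the difference of the brighter probe set was -0.71 ± 0.33 and no longer called (limma, adjusted p = 0.114). Further Fabp4 probe sets, with means of 94.95 and 65.82 over all ears, were below the minimum and not tested. They differed in direction. The former averaged 107 in mustard and 75.9 in vehicle ears, the latter 26.2 and 72.0.

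Pparg, the master regulator, read 169, 68.3, 146, 371 and 111 in the mustard ears of animals 1, 3, 5, 36 and 37. Vehicle ears lay between 180.5 (animal 36) and 726 (animal 1), with a median of 287. All mustard ears but ear 36 were below every vehicle ear. Pparg fell by 0.87 ± 0.21 (SE; limma, adjusted p = 0.000963), a 1.83-fold change. Without ear 36 it fell by 1.18 ± 0.21 and without ear 3, the lowest, by 0.63 ± 0.22 (limma, adjusted p = 9.72e-06 and 0.0213). Without ears 5 and 37 it fell by 0.73 ± 0.27, and by 0.80 ± 0.26 when the Gapdh ratio was a covariate (limma, adjusted p = 0.0396 and 0.0212).

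Adipoq encodes adiponectin, a hormone of fat cells that raises insulin sensitivity. Its values in the mustard ears of animals 1, 3, 5, 36 and 37 were 179, 419, 356, 1025 and 319, against 163 to 1750 in vehicle ears with a median of 694. Values other than that of ear 36 were in the lower part of the vehicle range and ear 36 was above the vehicle median, so the groups overlapped fully. The log2 difference was -0.85 ± 0.38 (SE; limma, adjusted p = 0.0708) and not called. It passed the threshold without ear 36, at -1.19 ± 0.41 (limma, adjusted p = 0.0146), or without the vehicle ear of animal 19, at -0.95 ± 0.36 (adjusted p = 0.0282). It also passed with the mean of muscle genes as a covariate, at -1.07 ± 0.28 (limma, adjusted p = 0.00157), and was at -0.29 ± 0.45 with the Gapdh ratio (adjusted p = 0.690) and at -0.71 ± 0.49 without ears 5 and 37 (adjusted p = 0.308).

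Retn encodes resistin, a secreted protein of mouse fat. It read 343, 382, 326, 400 and 575 in the mustard ears and 277 to 931 in vehicle ears, with a median of 424. Lipe encodes hormone-sensitive lipase, which releases fatty acids from the droplet, and read 291, 403, 403, 396 and 320 in mustard ears against 243.5 to 720.2 in vehicle ears, with a median of 371. Every mustard ear lay inside the vehicle range for both genes. The 95% interval of the log2 difference ran from -0.40 to 0.23 for Retn and from -0.34 to 0.25 for Lipe, and neither was called (limma, adjusted p = 0.691 and 0.842).

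Cidec and Lep were not tested. Cidec read 20.4, 35.9, 67.8, 107 and 80.7 in the mustard ears of animals 1, 3, 5, 36 and 37 and 16.1 to 277 in vehicle ears. Lep read 18.3, 25.2, 13.9, 31.7 and 28.4 there and 12.1 to 57.6 in vehicle ears. Mustard ears lay within the vehicle range for both genes.

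**Figure D1:**
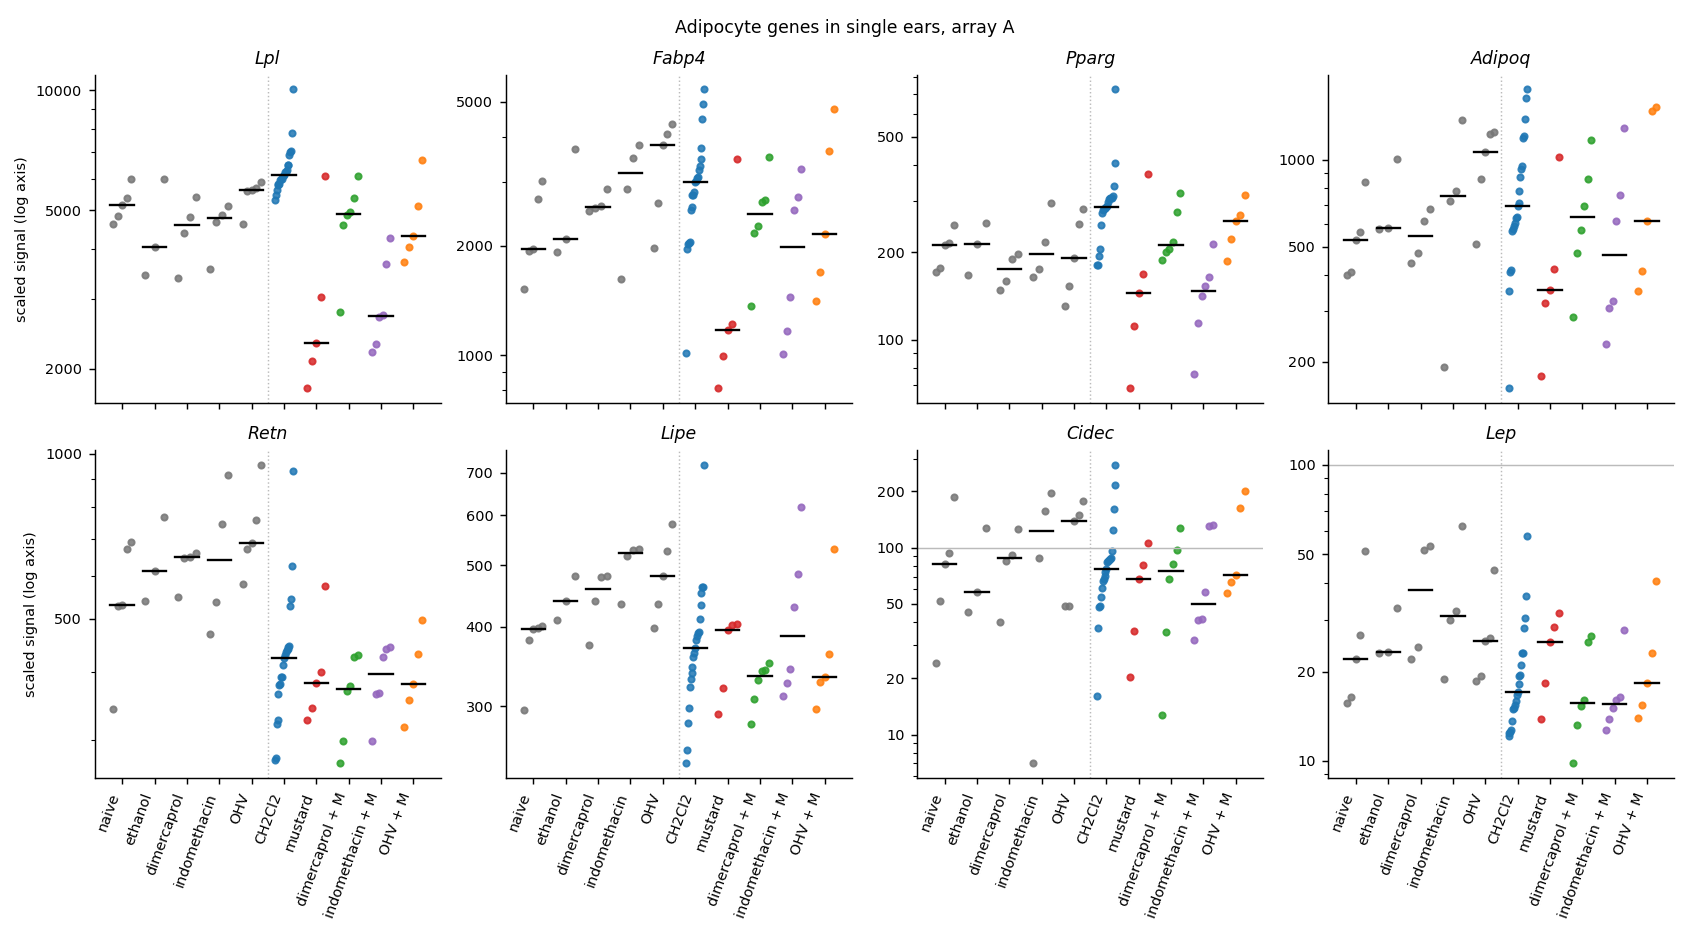
Scaled signal (log axis) of 8 adipocyte genes in the 64 single ears of array A, by treatment group. Points are ears, black bars are group medians, the grey line in the Cidec and Lep panels is the minimum of 100, CH2Cl2 is methylene chloride, OHV octylhomovanillamide and "+ M" a drug followed by mustard. In the Lpl panel the mustard ears sit between 1789 and 3027 except the ear at 6089, and all 21 vehicle ears are at 5321 or above.

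Both ears of an animal could be compared in 17 animals, 4 of them with mustard alone. The right ear had less Lpl than the left in 3 of these 4 animals. Animals 1, 3 and 37 went from 10054, 7805 and 5788 in the left ear to 2086, 1789 and 2327 in the right, and animal 36 from 5321 to 6089. Animal 36 also read higher in its mustard ear for Fabp4 (2767 left, 3472 right), Pparg (180.5 left, 371 right) and Adipoq (633 left, 1025 right), and the other 3 animals read lower there for all of these genes. When animals entered as a fixed block, which uses animals with both ears, the calls of Lpl, Fabp4 and Pparg in mustard against vehicle ears held (limma, adjusted p = 0.00118, 0.0196 and 0.0375).

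**Figure D2:**
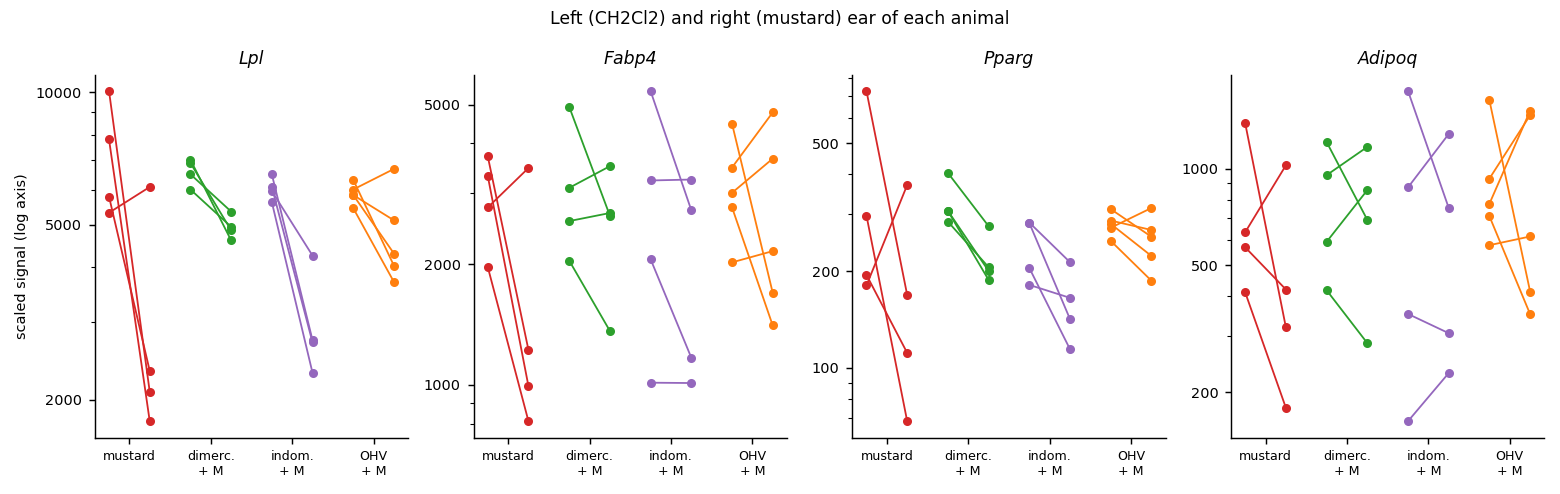
Scaled signal (log axis) of Lpl, Fabp4, Pparg and Adipoq in the left ear (methylene chloride) and right ear (mustard, alone or after a drug, abbreviated under each panel) of the 17 animals with both ears. Each line is 1 animal. Lines for Lpl fall in 15 of 17 animals, and the steepest, from 10054 to 2086, belongs to an animal given mustard alone.

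Dimercaprol before mustard was compared with mustard alone to ask what changed with the drug. Lpl was higher after dimercaprol, and it was the only 1 of the 6 genes called by its brightest probe set, where 26.7% of all genes tested were called and 15.4% were called higher. Lpl ran from 2773 (animal 12) to 6106 (animal 6) in the 6 dimercaprol ears with a median of 4899, and all but that of animal 12 lay above the mustard ears other than ear 36. The log2 difference was 0.75 ± 0.20 (SE; limma, adjusted p = 0.00496), a 1.68-fold change, and 1.03 ± 0.18 without mustard ear 36 (adjusted p = 2e-05). Without mustard ear 3, the lowest, it was 0.591 ± 0.207 (limma, adjusted p = 0.0343).

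Fabp4 ran from 1362 to 3509 in dimercaprol ears with a median of 2452, and its 2 tested probe sets differed in their calls. The brighter was at 0.82 ± 0.34 (limma, adjusted p = 0.0697) and the dimmer at 1.02 ± 0.29 (adjusted p = 0.00658). Pparg, between 188 and 321 with a median of 211, was at 0.58 ± 0.26 (limma, adjusted p = 0.0954), and Adipoq at 0.64 ± 0.47 (adjusted p = 0.323). Without mustard ear 36, Fabp4 and Pparg passed the threshold at 1.17 ± 0.34 and 0.88 ± 0.25 (limma, adjusted p = 0.00635 and 0.00471). Without mustard ear 3, Pparg was at 0.33 ± 0.26 (limma, adjusted p = 0.377). Fabp4 also passed without the dimercaprol ear of animal 9, at 0.98 ± 0.35 (adjusted p = 0.0406). The call of Lpl was lost when animals entered as a fixed block (0.95 ± 0.37, limma adjusted p = 0.169), with array brightness as a covariate (0.60 ± 0.25, adjusted p = 0.187) or without mustard ears 5 and 37 (0.71 ± 0.24, adjusted p = 0.0538).

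Lpl was also the gene called after octylhomovanillamide and mustard, in a comparison that shares the 5 mustard ears with those of the other drugs. Lpl read 4298, 5114, 4034, 3704 and 6691 in the octylhomovanillamide ears of animals 27, 28, 29, 30 and 33. All were above the mustard ears other than ear 36. Lpl was higher by 0.75 ± 0.21 (SE; limma, adjusted p = 0.0120), a 1.68-fold change, where 17% of all genes tested were called and 10.3% were called higher. With each of the 10 ears left out in turn, the call held 9 times and was lost without mustard ear 3 (0.60 ± 0.22, limma adjusted p = 0.0598). The difference was 1.04 ± 0.18 without ear 36 (limma, adjusted p = 7.95e-05). The call was also lost with animals as a fixed block, with array brightness or the Gapdh ratio as a covariate, and without ears 5 and 37 (limma, adjusted p = 0.199, 0.184, 0.148 and 0.129).

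Fabp4 read 3663, 2154, 1696, 1406 and 4778 in the same octylhomovanillamide ears. Its brighter probe set was not called at 0.89 ± 0.36 (limma, adjusted p = 0.0787) and its dimmer one was, at 0.89 ± 0.30 (adjusted p = 0.0340). Pparg read 187, 268, 256, 223 and 314 and was at 0.66 ± 0.27 (limma, adjusted p = 0.0832). Values of both genes in animal 33 were the highest of their group. Without mustard ear 36 both were called, Fabp4 at 1.24 ± 0.35 and Pparg at 0.97 ± 0.26 (limma, adjusted p = 0.00757 and 0.00403), and Fabp4 also without octylhomovanillamide ear 30 (1.09 ± 0.37, adjusted p = 0.0495). Without mustard ear 3, Pparg was at 0.42 ± 0.27 (limma, adjusted p = 0.314).

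After indomethacin and mustard, limma called none of the 6 genes against mustard alone, where 1.67% of all genes tested were called, and 0 of the 6 had an unadjusted p under 0.05. Lpl ran from 2209 to 4252 with a median of 2716 and differed by 0.07 ± 0.20 (SE; limma, adjusted p = 0.891), with a 95% interval from -0.34 to 0.47. Fabp4 was at 0.47 ± 0.34 and Pparg at -0.10 ± 0.26 (limma, adjusted p = 0.466 and 0.865).

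**Figure D3:**
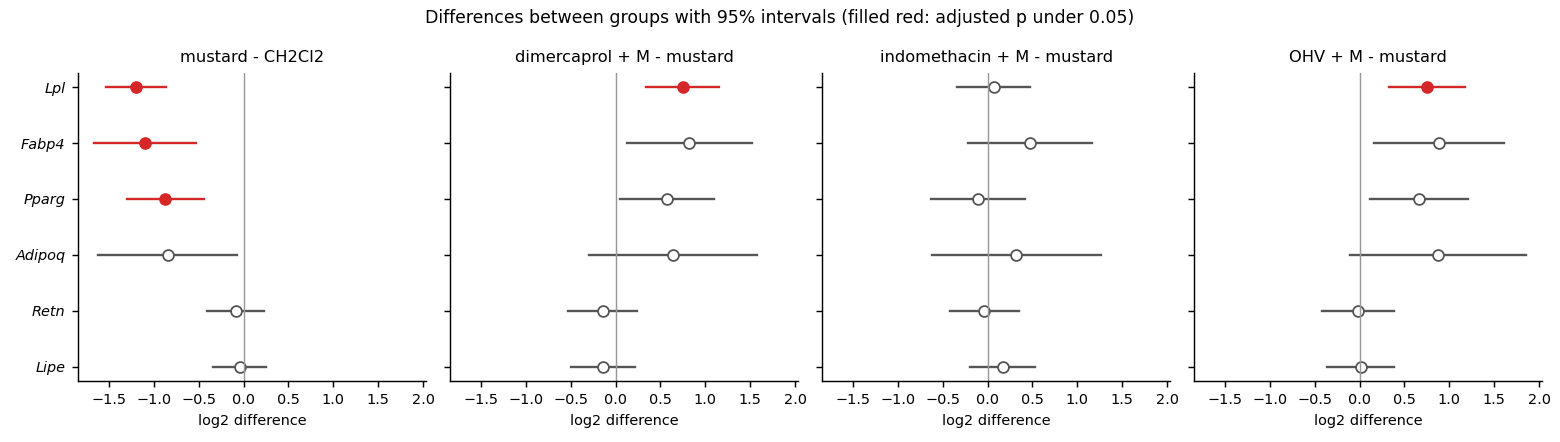
Log2 differences between groups (x axis) with 95% intervals for the 6 tested genes (y axis) in 4 comparisons, from the limma fit to array A. Filled red points have an adjusted p under 0.05. Lpl is at -1.20 in mustard against methylene chloride, at 0.75 for dimercaprol and for octylhomovanillamide before mustard, and at 0.07 for indomethacin before mustard.

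Each drug group was also compared with the vehicle ears, which these comparisons share. After indomethacin and mustard, Lpl was at -1.13 ± 0.15 on the log2 scale, 2.19-fold lower (SE; limma, adjusted p = 2.11e-07), and no ear reached the vehicle range. Pparg, between 76.5 and 213 with a median of 147, was at -0.97 ± 0.20, 1.96-fold lower (limma, adjusted p = 0.000133). These 2 of 6 stand beside 38% of all genes called and 21% called lower. The Pparg call was lost with animals as a fixed block (-0.55 ± 0.31, limma adjusted p = 0.245). Fabp4 ran from 1009 to 3249 with a median of 1981 and was at -0.63 ± 0.26 (limma, adjusted p = 0.0579), its dimmer probe set being called at -0.71 ± 0.22 (adjusted p = 0.00930). Its call came and went with single ears: Fabp4 passed the threshold when indomethacin ear 18, 21 or 22 or vehicle ear 1 or 19 was left out, with values from -0.79 to -0.65.

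After dimercaprol and mustard or octylhomovanillamide and mustard, none of the 6 genes was called against vehicle ears, where 3.5% and 3.28% of all genes were. Lpl was at -0.45 ± 0.15 and -0.44 ± 0.17 (limma, adjusted p = 0.102 and 0.157), with 95% intervals from -0.76 to -0.14 and from -0.78 to -0.11. Lpl had an unadjusted p under 0.05 in both comparisons, the only 1 of the 6 genes to do so. Within animals, Lpl was lower in the right ear in 4 of 4 dimercaprol, 4 of 4 indomethacin and 4 of 5 octylhomovanillamide animals. The median right minus left difference was -0.39, -1.21 and -0.44 on the log2 scale.

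Between drugs before mustard, Lpl was higher after dimercaprol than after indomethacin by 0.68 ± 0.19 (SE; limma, adjusted p = 0.0193), where 11.7% of all genes tested were called and 6.42% were called higher. Doses and volumes were not matched between drugs. The call was lost without dimercaprol ear 6 (0.60 ± 0.20, limma adjusted p = 0.0608), without indomethacin ear 16 (0.60 ± 0.20, adjusted p = 0.0715), with animals as a fixed block (adjusted p = 0.479) or with array brightness as a covariate (adjusted p = 0.0566). Pparg was at 0.68 ± 0.25 (limma, adjusted p = 0.0699) and was called without indomethacin ear 19 (0.79 ± 0.26, adjusted p = 0.0463). Octylhomovanillamide against indomethacin gave 0.69 ± 0.20 for Lpl, not called (limma, adjusted p = 0.0564; 2.36% of all genes called). That value passed without indomethacin ear 18 or 21 or octylhomovanillamide ear 29 (limma, adjusted p = 0.0193, 0.0321 and 0.0428). Dimercaprol against octylhomovanillamide gave -0.01 ± 0.20 for Lpl with a 95% interval from -0.41 to 0.40. In that comparison limma called 0 of the 9599 genes, and 211 had an unadjusted p under 0.05.

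Without mustard, the drugs were compared with ethanol ears. Lpl read 3438, 4050 and 5975 in the ethanol ears of animals 507, 515 and 520. It read 3374, 5397, 4383 and 4821 after dimercaprol, 3557, 5112, 4875 and 4672 after indomethacin, and 5701, 4612, 5878, 5625 and 5587 after octylhomovanillamide. All drug ears but the dimercaprol ear at 3374 lay within the range of the ethanol ears. Over the 3 drugs, log2 differences of the 6 genes lay between -0.35 (Adipoq, dimercaprol) and 0.42 (Adipoq, octylhomovanillamide). None was called, and limma called 0 genes in all (0%), with 434, 687 and 591 genes at an unadjusted p under 0.05 for dimercaprol, indomethacin and octylhomovanillamide. Whether a drug's difference with mustard departed from its difference without was tested for the 6 genes and 3 drugs. The difference with mustard includes the drug's ethanol, and the difference from ethanol ears does not. They also come from separately numbered sets of animals. The smallest adjusted p was that of Lpl with dimercaprol, 0.1245 (limma, 0.73 ± 0.31), so none passed.

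None of the 6 genes was called between ethanol and naive ears (limma, 0 genes called in all, 0%, and 302 at an unadjusted p under 0.05), and the 95% interval for Lpl ran from -0.61 to 0.17. Methylene chloride against naive ears compares separately numbered sets of animals, and set and solvent cannot be told apart. None of the 6 genes was called there, where 22.1% of all genes were. Group means of Retn lay between 362 and 439 in the 5 groups of the mustard set and between 552 and 730 in the 5 groups of the other set. The difference of vehicle from naive ears was -0.33 ± 0.19 (limma, adjusted p = 0.213).

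Ordered by their mean log2 level over the 10 groups, Lpl, Fabp4 and Adipoq were lowest after mustard alone. Mean Lpl was 3064 ± 1752 after mustard and 2977 ± 810 after indomethacin and mustard (SD of scaled signal, n = 5 and 6). It was 4487 ± 1324 in ethanol ears, 4494 ± 854 after dimercaprol, 4554 ± 688 after indomethacin, 4773 ± 1112 after dimercaprol and mustard and 4768 ± 1195 after octylhomovanillamide and mustard. It was 5194 ± 522 in naive ears (5 ears of 3 animals, not averaged per animal here), 5480 ± 498 after octylhomovanillamide and 6413 ± 1020 in vehicle ears. Steps between neighbours were larger than both SDs on the log2 scale only from indomethacin and mustard to ethanol ears and from octylhomovanillamide to vehicle ears. For Pparg the lowest mean was 144 ± 46.4, after indomethacin and mustard, and the highest 300 ± 111, in vehicle ears. Mean Pparg was 172.9 ± 116.8 after mustard alone. In the separately numbered set without mustard its group means lay between 173.9 ± 23.82 (dimercaprol) and 213.6 ± 59.57 (indomethacin), near the mustard mean and below that of vehicle ears. For Fabp4 the means ran from 1533 ± 1096 to 3359 ± 1012, and for Adipoq from 460 ± 328 after mustard to 982 ± 306 after octylhomovanillamide. Neighbouring groups differed by less than the larger of their SDs at every step for Pparg, Fabp4, Adipoq, Retn and Lipe.

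The 21 vehicle ears, 1 from each animal, show how the genes vary together in ears not given mustard. In 17 of these animals the right ear, given mustard alone or after a drug, was measured too. An effect of that treatment on the left ear was not tested. Adipoq varied 10.8-fold among them, from 163 in animal 19 to 1750 in animal 22, Fabp4 5.34-fold and Lpl 1.89-fold. Animals 19 and 22 were also the lowest and the highest for Fabp4 (1011 and 5403) and for Cidec (16.1 and 277). Of 7 relations with Adipoq computed on the log2 scale, 5 passed an adjusted p of 0.05. Fabp4 was the closest, with r = 0.935 and rho = 0.869 (permutation p = 1e-05 for both, the smallest that 100000 permutations can give, adjusted p = 3.5e-05 and 7e-05), and r = 0.871 without the 2 ears farthest from the median of Adipoq. Cidec followed with r = 0.867 and rho = 0.730 (permutation p = 1e-05 and 0.00024, adjusted p = 3.5e-05 and 0.00084), and r = 0.766 without those ears.

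Retn had r = 0.656 and rho = 0.530 with Adipoq (permutation p = 0.0019 and 0.015, adjusted p = 0.0044 and 0.026), and r = 0.573 without the 2 ears. Lipe had r = 0.530 and rho = 0.542 (permutation p = 0.015 and 0.012, adjusted p = 0.025 and 0.026), and r = 0.673 without them. Lep, read at low signal, had r = 0.514 and rho = 0.419 (permutation p = 0.019 and 0.060, adjusted p = 0.027 and 0.084), and r = 0.440 without them. Its rank correlation did not pass.

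Lpl and Pparg, both called lower in mustard ears, did not vary with Adipoq past the threshold. Against Adipoq, Lpl had r = -0.051 and rho = 0.035 (permutation p = 0.82 and 0.88, adjusted p = 0.82 and 0.88), and Pparg r = -0.213 and rho = -0.168 (permutation p = 0.34 and 0.47, adjusted p = 0.40 and 0.55). Without the 2 ears r was -0.256 for Lpl and -0.298 for Pparg. Lpl and Pparg varied with each other at r = 0.753 and rho = 0.668 (permutation p = 0.00093 and 0.0011, adjusted over 15 pairs of the 6 genes to 0.0058 and 0.0085). That pair was singled out after its value was seen. The vehicle ear of animal 1 was the highest for both genes. Without the 2 ears farthest from the median of Lpl r was 0.484. Array brightness had r = -0.053 with Adipoq, -0.160 with Fabp4, -0.007 with Lpl, 0.203 with Pparg, -0.382 with Retn and -0.398 with Lipe over the same 21 ears, given as a description.

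**Figure D4:**
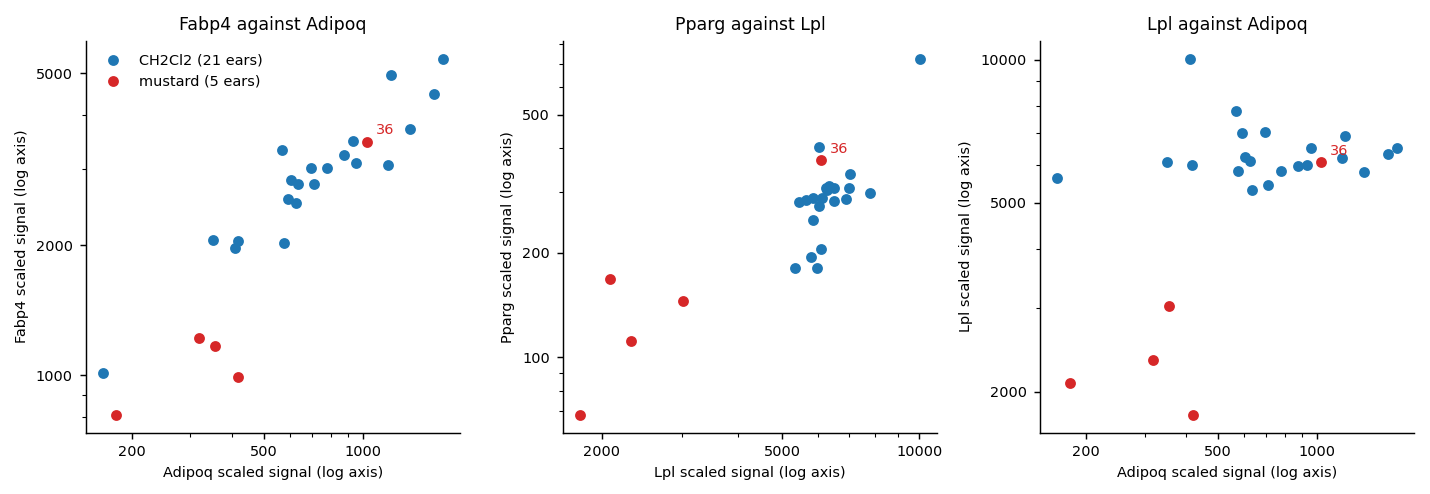
Scaled signal (log axes) of Fabp4 against Adipoq, Pparg against Lpl and Lpl against Adipoq in the 21 vehicle ears (blue) and 5 mustard ears (red), with mustard ear 36 labelled. Vehicle ears line up for Fabp4 and Adipoq (r = 0.935) and not for Lpl and Adipoq (r = -0.051), and the mustard ears other than ear 36 sit below the vehicle ears for Lpl.

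Outside the 10 genes, those most like Adipoq over the 21 vehicle ears were Hp, Thrsp, Oaf, Itm2a, Nnmt, Cd302, Cpq, Mgp, Selenom and Ppic, with r from 0.822 (Ppic) to 0.874 (Hp). Thrsp encodes a protein of fatty acid synthesis, Hp haptoglobin, and Mgp an inhibitor of calcification. They were taken as the 10 highest of all tested genes, so these r are a description. In mustard ears Thrsp fell by 0.98 ± 0.31 (SE; limma, adjusted p = 0.00870) and Oaf rose by 0.58 ± 0.19 (adjusted p = 0.0104). Hp was at 0.96 ± 0.42 (limma, adjusted p = 0.0590), and the other 7 were not called.

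Partners of these genes were counted in lists that hold none of the 10. Counts in mustard against vehicle ears are to be read beside the share over all array A genes, 23.8% lower and 19.6% higher. Of 12 measured adipogenic transcription factors, 8 fell and 2 rose in mustard ears, with a median of -0.53. Rxra, the partner with which PPARγ binds DNA, fell by 1.14 ± 0.14 (SE; limma, adjusted p = 2.33e-08) and the coactivator Ncoa1 by 0.63 ± 0.11. On array B, where 30.9% of genes were called, Ppara, a relative of Pparg that drives fatty acid oxidation, fell by 1.64 ± 0.24, and Ppard, which acts in wounded epidermis, rose by 1.02 ± 0.17. Klf15, named after its value was seen, had the largest fall, 1.87 ± 0.37, and the other gene that rose, Cebpb, was at 0.53 ± 0.10. After dimercaprol 6 of the 12 were higher than after mustard alone and 2 lower, after octylhomovanillamide 4 and 1, and after indomethacin 0 and 0. Array B genes entered these counts, and in these comparisons 26.7%, 17% and 1.67% of all array A genes and 19.7%, 12.2% and 3.9% of all array B genes were called. Rxra was higher by 0.79 ± 0.17 after dimercaprol and by 0.77 ± 0.18 after octylhomovanillamide (limma, adjusted p = 0.000686 and 0.00355).

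Among 12 measured genes of the lipid droplet and lipolysis, 9 fell and 1 rose, with a median of -0.60, where 23.8% of all array A genes were called lower. The droplet coat genes Plin3 and Plin4 fell by 0.76 ± 0.13 and 0.64 ± 0.13, the caveolar gene Cav1 by 0.69 ± 0.15 and the monoglyceride lipase Mgll by 0.55 ± 0.13. Plin2, the coat protein of droplets in most cells, was the 1 that rose, by 0.29 ± 0.09 (SE; limma, adjusted p = 0.00726). Plin3 was higher after dimercaprol by 0.55 ± 0.16 and after octylhomovanillamide by 0.52 ± 0.17 than after mustard alone (limma, adjusted p = 0.00857 and 0.0249).

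Fatty acid uptake and triglyceride synthesis was mixed, with 7 of 15 measured genes lower, 2 higher and a median of -0.12 (23.8% lower and 19.6% higher over all array A genes). Angptl4, a secreted protein that inactivates lipoprotein lipase, rose by 1.77 ± 0.25 (SE; limma, adjusted p = 2.14e-07) where Lpl fell. Against mustard alone it was at -1.72 ± 0.30 after dimercaprol and at -1.25 ± 0.31 after octylhomovanillamide, both called lower (limma, adjusted p = 6.32e-05 and 0.00563), and at -0.46 ± 0.30 after indomethacin (adjusted p = 0.405). Gpam and Dgat2, enzymes at the start and end of triglyceride synthesis, fell by 0.86 ± 0.14 and 0.56 ± 0.09. Fabp5, the epidermal relative of Fabp4, rose by 0.55 ± 0.11 (limma, adjusted p = 4.51e-05).

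Of 10 measured genes of fatty acid synthesis, 7 fell and 1 rose, with a median of -0.66, again beside 23.8% lower over all array A genes. Elovl6 fell by 1.33 ± 0.17, the malic enzyme Me1 by 0.92 ± 0.14, Acly by 0.68 ± 0.10 and Fasn by 0.65 ± 0.13. The desaturase gene Scd1 was the 1 that rose, by 0.27 ± 0.10 (SE; limma, adjusted p = 0.0245). Of 14 measured further adipocyte-enriched genes 6 fell and 0 rose. The natriuretic peptide receptor Npr3 fell by 1.22 ± 0.19. Pnpla2 (-0.44 ± 0.13), Thrsp (-0.98 ± 0.31) and Orm1 (-0.84 ± 0.27) were among the others that fell. Genes of that list outside these 6 were not called, such as Adig (-0.02 ± 0.18), Lgals12 (-0.09 ± 0.11) and Sncg (0.28 ± 0.27). Of 4 adipokine receptors 2 fell: Cdh13, which binds adiponectin, by 1.09 ± 0.16 and Adipor2 by 0.65 ± 0.12. Of 7 brown fat genes 2 fell (Prdm16 and Cidea) and 0 rose. Over all array A genes 23.8% were called lower, and the brown fat count lies near that share. The lists share genes (Thrsp and Pnpla2 each stand in 2), and several of their genes are used in epidermis and sebaceous glands as well.

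Markers of other cells were counted in the same comparison, where 23.8% of all array A genes were called lower and 19.6% higher. Of 8 measured sebaceous gland genes 6 fell and 0 rose, with a median of -0.47. The summed signal of the 7 on array A, which leaves out Far2, ran from 22916 to 33603 in mustard ears and from 27221 to 47035 in vehicle ears. Of 9 macrophage genes 4 rose and 0 fell (Cd68, Clec7a, Fcgr1 and Mpeg1), with sums from 3360 to 7198 against 3316 to 6730. Of 7 endothelial genes Egfl7 rose and Cldn5 fell, and of 8 fibroblast genes Mfap5 rose. Of 7 keratinocyte genes Krt14 and Krt10 rose and Trp63 and Ivl fell, and of 8 cartilage genes Ucma fell. The part of these lists in the results was not tested. Of 12 muscle genes 0 were called, and their sums, from 66946 to 111495 in mustard ears and from 22801 to 130555 in vehicle ears, were wide in both groups. With their mean as a covariate, Lpl was at -1.23 ± 0.16, Fabp4 at -1.26 ± 0.20 and Pparg at -0.85 ± 0.22 in mustard against vehicle ears, all still called (limma, adjusted p = 9.64e-08, 1.75e-06 and 0.00130).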

How the data were processed

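RNA from ear biopsies, 10 µg a sample, was measured on array A (64 ears) and array B (43 ears). Per the labels, MAS5 gave the signals; its settings are not given in the sources used here. The deposited values are linear intensity. Arrays have no read depth, so precision depends on how many ears a group has.

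Signals were rescaled so that every array had a 2% trimmed mean of 500, and log2(scaled signal + 16) was used, which understates changes of dim genes. Probe sets with a mean below 100 were dropped, leaving 15960 of 22690 on array A. In the platform annotation 20393 of these 22690 had 1 symbol, 691 had several and 1606 had none, and only the first were named. Where several probe sets of a gene remained, the brightest stands for it and the others are given beside it.

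Groups were compared with limma 3.58.1 (R 4.3.3; lmFit, then eBayes with a trend; Benjamini-Hochberg over all remaining probe sets, threshold 0.05, 2-sided). The vehicle, mustard and drug-then-mustard ears were fitted together, the ears without mustard separately with naive ears averaged per animal, and vehicle against naive in a fit of all array A ears. Code was tested on simulated data. Correlations had 100000 permutations, 2-sided.

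Ears with 1 animal number come from 1 animal. Across probe sets, deviations from group means correlated at 0.166 between both ears of an animal (mean of 17, from -0.0998 to 0.442) and at -0.00617 between animals. The animal entered as a block in alternatives only. The remaining alternatives covered scaling (none, quantile), the pseudocount (64) or floor (16), the filter (none, 300), the trend, probe set averaging, covariates (muscle genes, Gapdh ratio, brightness) and ears left out. Of each of 14 lists of other genes, up to 4 with the smallest adjusted p may be named. Plin2, Scd1, Klf15, Cebpb, Adig, Lgals12 and Sncg were added after their values were seen. The 10 genes and all lists were chosen with earlier results of these data known. The limma p-values set a difference against the spread between ears of a group. Apart from naive ears, the main fits took both ears of an animal as separate.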

Additional observations from a re-analysis of the deposited data

Results flagged for a closer look

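Among 56 groups of 4 to 6 ears, 1 gene at a time, 6 held an ear far from the others, and chance flags about 1 group in 20. The measure is the gap of that ear to its nearest neighbour divided by the range of the group on the log2 scale. Fabp4 in the mustard ear of animal 36 was 3472 against 811 to 1221 in the other mustard ears, a gap of 0.72 of the range. Lpl in the octylhomovanillamide ear of animal 517 was 4612 against 5587 to 5878 (0.791). Lpl in the dimercaprol-then-mustard ear of animal 12 was 2773 against 4604 to 6106 (0.642). Retn in the dimercaprol ear of animal 510 was 548 against 647 to 658 (0.903). Lipe in the indomethacin ear of animal 511 was 435 against 517 to 531 (0.863). Lep, at low signal, was 27.6 in the indomethacin-then-mustard ear of animal 19 against 12.7 to 16.4 (0.716).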

How the results depend on the processing

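No called result reversed its direction under any alternative. In mustard against vehicle, Fabp4 lost its call with the Gapdh ratio. Adipoq gained a call there with the muscle covariate and without mustard ear 36 or vehicle ear 19. Counts are of the 6 genes. Without rescaling, 6 were called in mustard against vehicle (3 in the report), 6 in dimercaprol against mustard (1), 2 in indomethacin against mustard (0), 6 in octylhomovanillamide against mustard (1) and 2 in dimercaprol against indomethacin (1); that setting moved the median of all genes by -0.53, 0.76, 0.45 and 0.63 in the first 4 comparisons. With the mean over probe sets, 2 were called in dimercaprol and 2 in octylhomovanillamide against mustard, and with the muscle covariate 3 and 3. With the animal as a fixed replicate block, 0 were called in each of dimercaprol against mustard, octylhomovanillamide against mustard and dimercaprol against indomethacin, and 1 in indomethacin against vehicle (2); the random block changed no count. With array brightness as a covariate, 0 were called in these 3 drug comparisons. Without mustard ears 5 and 37, 0 were called in dimercaprol or octylhomovanillamide against mustard, and with the Gapdh ratio 0 in the latter. Octylhomovanillamide against indomethacin (0) had 1 with a minimum of 300 and 1 with the muscle covariate. Leaving out each ear gave 1 to 3 for dimercaprol against mustard, 0 to 3 for octylhomovanillamide against mustard, 0 to 2 for dimercaprol against indomethacin and 0 to 1 for octylhomovanillamide against indomethacin. The cause of these changes was not tested. Of the relations with Adipoq, 5 passed under each scaling and pseudocount and 4 without the 2 ears. Of the values of single genes under an alternative, 302 kept their side of the threshold or moved little, 24 gained a call, 13 lost one and 5 correlations moved by over 0.1. Genes at low signal (Lep, Cidec) are limited by background.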

Other observations

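Over the 17 animals with both ears on array A, the left and right deviations from their group means gave r = 0.419 for Adipoq, 0.467 for Fabp4, 0.563 for Lipe, 0.250 for Retn, -0.094 for Pparg and -0.444 for Lpl. Rank correlations were 0.446, 0.461, 0.434, 0.230, -0.034 and -0.201. Of these 6 relations none passed (permutation p from 0.021 to 0.69 for r and from 0.064 to 0.90 for rho, adjusted p from 0.13 to 0.69 and from 0.17 to 0.90). Without the 2 animals farthest from the median of the left ear, r was 0.265, 0.312, 0.149, 0.063, 0.106 and -0.195.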
